A study of Mus musculus with 6 samples.

Results

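Expression of 35 genes of serine/threonine phosphatases other than protein phosphatase 2A (PP2A) was compared between mouse leukaemia cells with and without deletion of the PP2A scaffold gene. The genes encode catalytic and regulatory subunits of PP1, PP2B (calcineurin), PP4, PP5 and PP6, enzymes of the metal-dependent PPM and PHLPP families, and the mitochondrial phosphatases PGAM5 and PPTC7. All 35 had a probe set assigned to no other gene and were tested among 19733 genes. Where a gene had several such probe sets, the one with the highest mean over the 6 arrays was taken. The question was whether any of them was higher after deletion of the scaffold gene.

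The cells were bone marrow pre-B cells of mice with floxed Ppp2r1a alleles (Ppp2r1afl/fl), transduced with the BCR-ABL1 oncogene, which drives B cell acute lymphoblastic leukaemia. They then received Cre, which removes the floxed gene, or an empty vector (EV). Both groups therefore carry the floxed alleles and BCR-ABL1, although the labels give the genotype of the EV cells as wild type. Each group had 3 arrays, numbered as repeats, and no source used here says whether repeats were separate cultures or mice, so that the spread behind each p-value may be only technical. Age, sex and the time after transduction were not given in the sources used here, and no array held Cre in cells without floxed alleles, so an effect of Cre itself and loss of the scaffold cannot be told apart.

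Phosphatases of the PPP group (PP1, PP2A, calcineurin, PP4, PP5 and PP6) share a catalytic fold that holds a pair of metal ions. Most of them find their substrates through regulatory subunits. PP1 works with a very large set of such partners, calcineurin needs calcium and calmodulin and activates NFAT transcription factors in lymphocytes, and PP4 and PP6 are the closest relatives of the PP2A catalytic subunit. PPM enzymes need magnesium or manganese, mostly act without separate regulatory subunits and are not blocked by okadaic acid, while PHLPP enzymes remove phosphate from AKT.

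Ppp2r1a itself read 7.12, 6.98 and 6.92 on the Cre arrays and 9.06, 9.05 and 9.06 on the EV arrays (log2 level). It fell 4.15-fold (limma adjusted p = 1.2e-05), so the deletion was visible in all 3 Cre arrays. The Cre levels stayed above the median gene level of 5.25, and the source of this remaining signal was not tested. The other core subunits did not pass the test: the catalytic subunits Ppp2ca and Ppp2cb differed by 0.08 (SE 0.06) and -0.02 (SE 0.07) on the log2 scale, and the second scaffold gene, Ppp2r1b, by 0.11 (SE 0.09). The 9 tested of 10 pre-B markers had array means of 11.02 to 11.07 in Cre and 11.08 to 11.12 in EV, so that every Cre array lay slightly below every EV array. Dntt, the terminal transferase, was 1.39-fold lower in Cre (adjusted p = 0.03). When each array was dropped in turn, Dntt passed without Cre replicate 1 and in none of the other 5 fits (range of adjusted p 0.0257 to 0.108). Ebf1, a B lineage transcription factor, differed by -0.24 without overlap and did not pass (SE 0.06; adjusted p = 0.0865 in limma). Cd79a and Pax5 were higher in Cre without overlap, by 0.14 and 0.08, and did not pass either. Of the 9 markers, 5 were higher and 4 lower in Cre, with a median change of 0.002. The part of these markers in the values below was not tested. None of the measured markers of other cells passed the test. The array mean of 8 myeloid markers was 3.79 to 3.85 in Cre and 3.65 to 3.80 in EV; Itgam and S100a9 each differed by 0.24 (adjusted p = 0.192 and 0.256), Itgam without overlap. The mean of 7 T and NK markers was 3.86 to 3.97 in Cre and 3.82 to 3.99 in EV, with Cd8b1 at -0.13 and Cd4 at 0.13. That of 8 stromal markers was 4.25 to 4.29 in Cre and 4.28 to 4.32 in EV. Of these, Cxcl12 differed by -0.21 without overlap (adjusted p = 0.185), and Col1a2 differed by -0.09 and had group means of 5.30 and 5.39, above the median gene level of 5.25, as did Col1a1, named after its values were seen. The mean of 5 erythroid and megakaryocyte markers was 4.23 to 4.53 in Cre and 4.25 to 4.51 in EV, with Klf1 at -0.34 and Pf4 at 0.07. As these are bulk samples, fewer cells of a type and less RNA per cell cannot be told apart.

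Of the 35 phosphatase genes, 1 rose in the Cre cells and 0 fell at an adjusted p below 0.05 in limma, while 6 had an unadjusted p below 0.05. The gene that rose was Ppm1h. Over all genes tested, 3.49% of genes passed, 1.35% as rises and 2.14% as falls, and 16.1% had an unadjusted p below 0.05, against 2.86% and 17.1% of the phosphatase genes. The share called among the phosphatases was thus close to the background. The median change was 0.003 on the log2 scale for the 35 genes and -0.003 for all genes tested, and the median size of a change was 0.06 against 0.09. The phosphatase genes also had a lower spread between arrays, with a median SD within groups of 0.079 against 0.108 over all genes.

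**Figure D1:**
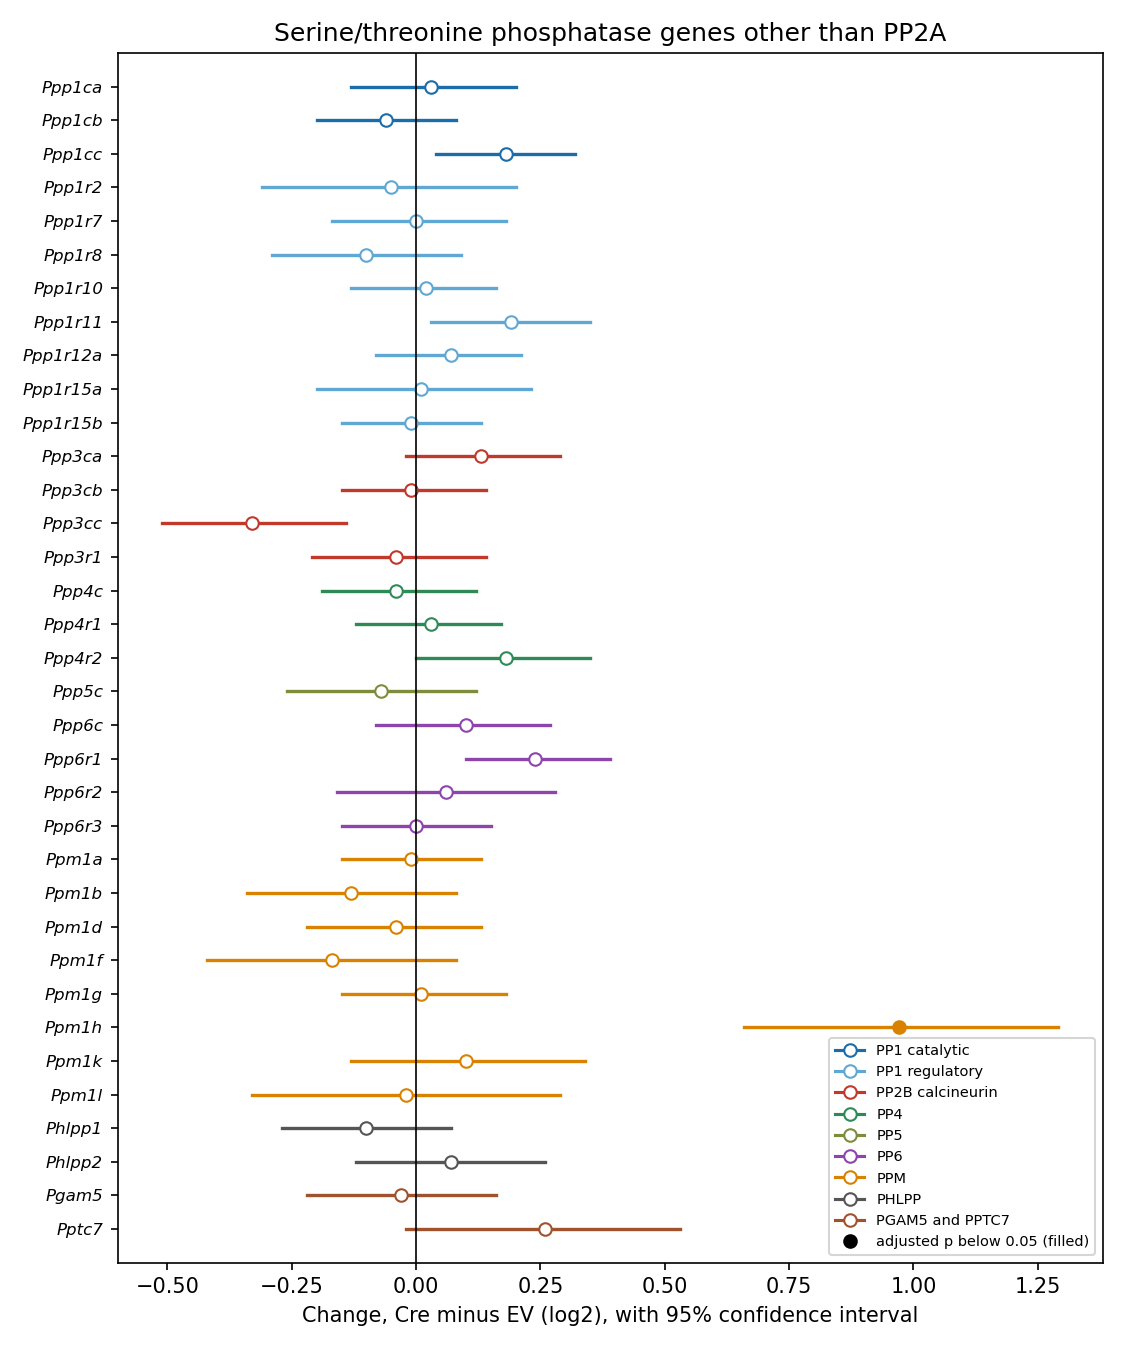
Change of each of the 35 phosphatase genes, Cre minus EV on the log2 scale (points), with the 95% confidence interval of limma's moderated fit (lines) and colours for the families. Ppm1h stands apart at 0.97 with an interval of 0.66 to 1.29, while the other 34 lie between -0.33 and 0.26.

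Ppm1h encodes a PPM phosphatase that removes phosphate from RAB GTPases and from the CDK inhibitor p27. Its probe set read 6.18, 6.08 and 5.73 on the Cre arrays and 4.93, 5.23 and 4.90 on the EV arrays. The lowest Cre array was above the highest EV array, and the SD within Cre was the widest of the 35 genes. The mean was 5.02 ± 0.181 with EV and 6.0 ± 0.238 with Cre (SD, n = 3), a log2 change of 0.97 (SE 0.14), or 1.97-fold with a 95% interval of 1.57 to 2.45. The adjusted p in limma was 0.00933. By size it was number 48 of the 267 genes that rose. In EV the gene lay near the middle of the array, above the array median in 1 of the 3 arrays, and in Cre in 3 of 3. Without detection calls, a level this close to the median can hold a large share of background signal. That share, and what it does to the size of the change, was not measured. Leaving out each array in turn gave changes between 0.88 and 1.11 and adjusted p-values between 0.00684 and 0.0457, so that the gene passed in all 6 fits. With ordinary t statistics, which do not share the estimate of spread across genes, its adjusted p was 0.114.

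The sequence before the start of Ppm1h is shown because it was the 1 phosphatase gene that rose, and that of Ppp6r1 because it had the next smallest p of the 35 genes among those higher in Cre. Both are the 250 bases before the annotated start, from RefSeq (build GRCm38.p6), written 5′ to 3′ along the gene's strand: chr10:122678512-122678761, plus strand, for Ppm1h and chr7:4658951-4659200, minus strand, for Ppp6r1. Capitals mark matches on either strand to 6 motifs, which were chosen after the changes were seen.
Ppm1h: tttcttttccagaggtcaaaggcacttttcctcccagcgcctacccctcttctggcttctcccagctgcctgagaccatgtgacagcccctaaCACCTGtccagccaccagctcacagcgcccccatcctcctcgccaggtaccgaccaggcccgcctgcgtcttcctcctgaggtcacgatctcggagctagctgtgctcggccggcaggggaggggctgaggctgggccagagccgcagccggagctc
Ppp6r1: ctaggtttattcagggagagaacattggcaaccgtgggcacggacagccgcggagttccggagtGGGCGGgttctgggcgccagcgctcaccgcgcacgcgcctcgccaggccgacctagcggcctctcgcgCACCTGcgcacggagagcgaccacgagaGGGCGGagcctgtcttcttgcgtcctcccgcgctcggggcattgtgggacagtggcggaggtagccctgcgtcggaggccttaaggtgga
Each holds 1 match to CAGGTG, an E-box of the type bound by E2A, a transcription factor of B cell development, read here as its reverse complement CACCTG. The match begins 157 bases before the start in Ppm1h and 118 bases before it in Ppp6r1. Of all 32851 promoter windows of that length, 17.2% hold this motif. Ppp6r1 also holds 2 matches to the GC box GGGCGG, found in 32.7% of windows, and Ppm1h has 0. Neither window holds CACGTG (the MYC type of E-box, 6.02% of windows), TGTTTAC (the FOXO site, 3.17%) or TGACGTCA (the cyclic AMP response element, 1.55%). Neither holds ACGTG, a form of the core of the hypoxia response element that lies within CACGTG (16.6%). The other form of that core, GCGTG, was not searched, so its presence in either window is not reported by these matches. A match is a stretch of letters, not a measured binding site.

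Among the other PPM enzymes none passed. Ppm1f, which acts on CaM kinases, read 5.76, 6.11 and 5.73 in Cre and 5.97, 6.07 and 6.08 in EV. Its groups overlapped through the second Cre array. Ppm1b, which counters stress and inflammatory kinases, read 7.47, 7.32 and 7.35 against 7.55, 7.35 and 7.63, with overlap. Ppm1k, the mitochondrial phosphatase of branched-chain keto acid dehydrogenase, differed by 0.10 (95% interval -0.13 to 0.34). Ppm1d, known as WIP1 and a target and brake of p53, differed by -0.04 (interval -0.22 to 0.13), and its 3 Cre arrays read 7.87, 7.86 and 7.84. Ppm1a, a phosphatase of SMAD proteins and stress kinases, and Ppm1g, linked to splicing and chromatin, differed by -0.01 and 0.01. Ppm1l, an endoplasmic reticulum enzyme, differed by -0.02 and was the 1 phosphatase gene with a mean level below the median over genes tested. Ppm1j and Ppm1m, the nearest relatives of Ppm1h, were on a separate list of 10 PPM and PPEF phosphatases outside the 35, of which 0 passed. Ppm1m read 6.62, 6.64 and 6.70 in Cre and 6.55, 6.54 and 6.51 in EV, a difference of 0.12 (SE 0.06; adjusted p = 0.422 in limma). Ppm1j, named after its values were seen, differed by -0.08 (SE 0.13). Tab1, a catalytically inactive PPM protein that activates the kinase TAK1, differed by 0.14 (SE 0.09).

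**Figure D2:**
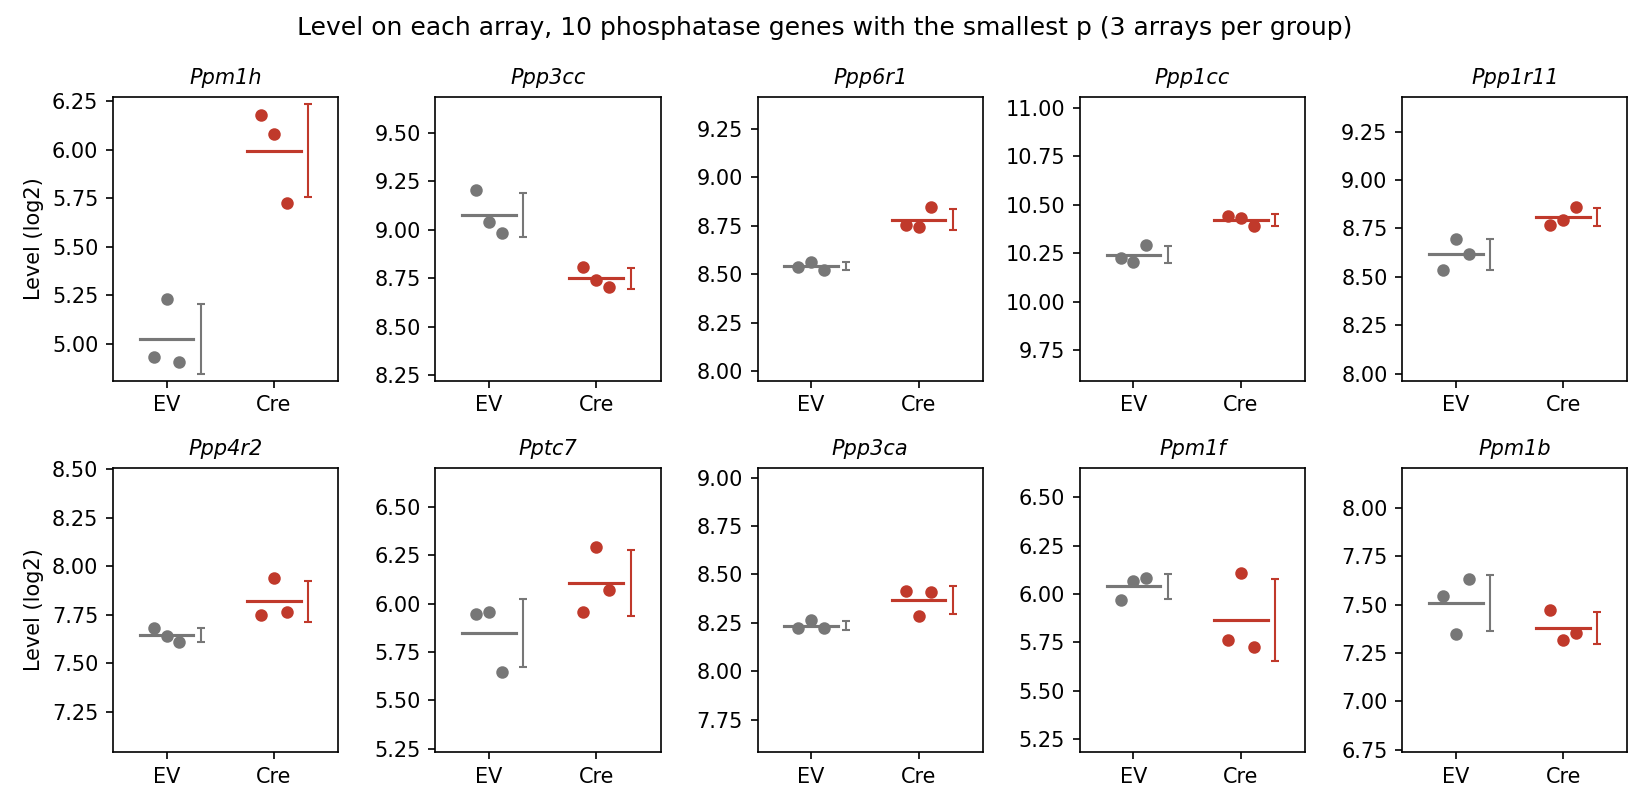
Log2 level on each EV (grey) and Cre (red) array for the 10 phosphatase genes with the smallest p, with the group mean (bar) and SD (error bar, n = 3); every panel spans the same log2 range. The Cre arrays of Ppm1h lie between 5.73 and 6.18 and the EV arrays between 4.90 and 5.23, a wider separation than in the other panels.

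Calcineurin subunits did not move as a group, and the gene with the second smallest p of the 35 was among them. Ppp3cc, the gamma catalytic subunit, read 8.81, 8.74 and 8.70 in Cre and 9.20, 9.04 and 8.98 in EV. All 3 Cre arrays were below all EV arrays. The difference was -0.33 (SE 0.08; 95% interval -0.51 to -0.14), 1.25-fold, at an adjusted p of 0.0751 in limma, so it did not pass. It did pass when the dimmest 25% of genes were left out (adjusted p = 0.0434), when the dimmest 50% were (0.0178), and with a variance trend and robust settings (0.00331). When each array was dropped in turn it passed in 0 of 6 fits (0.0974 to 0.201). Ppp3ca, the alpha subunit, read 8.41, 8.29 and 8.41 in Cre and 8.22, 8.26 and 8.22 in EV, higher on every Cre array by a small amount (0.13, SE 0.07; adjusted p = 0.387). Ppp3cb, the beta subunit, differed by -0.01 and Ppp3r1, the calcium-binding regulatory subunit, by -0.04, with overlapping groups. Of 16 tested genes of calcineurin partners and NFAT factors (17 listed), 0 passed, with a median of 0.02. Calm3, a calmodulin gene, and Nfatc3 differed by 0.19 (SE 0.07) and 0.15 (SE 0.07). Rcan1, a calcineurin inhibitor that is itself an NFAT target and was named after its values were seen, read 6.0, 6.01 and 6.03 in Cre and 6.05, 5.91 and 6.0 in EV.

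PP6 genes were all at or slightly above their EV level, and none passed. Ppp6r1, a regulatory subunit, read 8.76, 8.74 and 8.85 in Cre and 8.54, 8.56 and 8.52 in EV. The groups did not overlap, and the EV arrays were tight (SD 0.021). The difference was 0.24 (SE 0.06; interval 0.10 to 0.39), 1.18-fold, at an adjusted p of 0.097 in limma. It passed without the dimmest 50% of genes (adjusted p = 0.0203) and with a variance trend and robust settings (0.00638), and in 0 of 6 fits when each array was dropped in turn (0.184 to 0.239). The catalytic subunit Ppp6c, whose enzyme restrains Aurora A in mitosis, read 8.97, 9.03 and 9.06 against 8.80, 8.96 and 9.01, with overlap (0.10, SE 0.08). Ppp6r2 differed by 0.06 and Ppp6r3 by less than 0.01 on the log2 scale. In PP4, which acts in DNA repair and at centrosomes, the catalytic subunit Ppp4c read 8.02, 8.0 and 7.98 in Cre and 8.03, 8.13 and 7.96 in EV. Its regulatory subunit Ppp4r2 read 7.75, 7.94 and 7.76 against 7.68, 7.64 and 7.61, with no overlap, but the difference of 0.18 (SE 0.07) had an adjusted p of 0.304. Ppp4r1 differed by 0.03. Of 8 PP4 and PP6 partners listed beside them, 0 passed: Igbp1, which binds the free catalytic subunits of PP2A, PP4 and PP6, differed by -0.27 (SE 0.07; adjusted p = 0.0879), and Ankrd28 and Ankrd52, ankyrin subunits of PP6, by -0.15 and 0.11.

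Of the PP1 catalytic genes, Ppp1cc, the gamma form, had the smallest p. It read 10.44, 10.43 and 10.39 in Cre and 10.23, 10.21 and 10.29 in EV, a difference of 0.18 (SE 0.06), 1.13-fold, with no overlap and an adjusted p of 0.196 in limma. It passed in 1 of 15 alternative fits, that with a variance trend and robust settings (adjusted p = 0.00889). A second Ppp1cc probe set, annotated with the same transcripts, differed by 0.19 (SE 0.06), and as it measures the same RNA it is not a second piece of evidence. Ppp1ca, the alpha form, read 10.49, 10.43 and 10.61 against 10.46, 10.52 and 10.45, and Ppp1cb, the beta form, 9.891, 9.868 and 9.912 against 9.933, 9.914 and 9.996. Ppp1ca overlapped between groups, and Ppp1cb was lower on every Cre array by an amount within its SE (-0.06, SE 0.06).

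PP1 regulators were nearly level between the groups. Ppp1r11, known as inhibitor 3, read 8.77, 8.80 and 8.86 in Cre and 8.53, 8.69 and 8.62 in EV (0.19, SE 0.07; adjusted p = 0.221 in limma), without overlap. It passed only with a variance trend and robust settings among the 15 alternatives (adjusted p = 0.0418). Ppp1r12a, the myosin phosphatase targeting subunit, differed by 0.07, Ppp1r10 (PNUTS, a nuclear targeting subunit) by 0.02, Ppp1r8 (NIPP1, a nuclear inhibitor) by -0.10 and Ppp1r7 (SDS22) by less than 0.01. Ppp1r2, inhibitor 2, differed by -0.05, and 4 further probe sets shared by Ppp1r2 and a pseudogene differed by 0.08 to 0.15, with no call. Ppp1r15a (GADD34) and Ppp1r15b (CReP) direct PP1 to the translation factor eIF2 and end the integrated stress response. Ppp1r15a read 6.08, 6.06 and 6.34 in Cre and 6.21, 6.07 and 6.15 in EV, and Ppp1r15b 8.29, 8.24 and 8.29 against 8.32, 8.29 and 8.25. Both overlapped, with differences of 0.01 and -0.01. Of 14 tested eIF2 kinases and stress targets, Atf5, a stress-induced transcription factor, fell 1.26-fold (adjusted p = 0.0346), which passed in 0 of 6 fits when each array was dropped in turn (0.0603 to 0.119), and 13 did not pass. Of 43 further PP1 regulatory subunits, 0 passed, with a median of 0.02. Phactr1, an actin-binding regulator, differed by 0.25 (SE 0.08), and Ppp1r13b, a p53-binding protein, by -0.28 (SE 0.11).

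Of the remaining genes, Pptc7, a mitochondrial PPM-type phosphatase linked to mitophagy, read 5.96, 6.29 and 6.07 in Cre and 5.94, 5.96 and 5.65 in EV. The lowest Cre array (5.958) and the highest EV array (5.957) were level, and the difference of 0.26 (SE 0.12; adjusted p = 0.342) had the widest room for a rise apart from Ppm1h, up to 1.44-fold. Pgam5, a mitochondrial phosphatase of the phosphoglycerate mutase fold, differed by -0.03. Ppp5c, which binds the chaperone HSP90 through its tetratricopeptide repeats, read 8.59, 8.66 and 8.78 against 8.75, 8.85 and 8.64 (-0.07, SE 0.08). The AKT phosphatases Phlpp1 and Phlpp2 differed by -0.10 (SE 0.07) and 0.07 (SE 0.08). None of these passed. On a separate list of 10 aspartate-based phosphatases of the FCP and SCP type, many of which act on RNA polymerase II, 0 passed, and Ctdsp2 and Ctdspl differed by -0.23 (SE 0.06) and -0.21 (SE 0.07).

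For 10 of the 35 phosphatase genes (28.6%) the 2 groups lay apart with no overlap, against 22.5% of all genes tested. Higher in Cre were 8 of them (22.9%, against 10.3% of all genes): Ppm1h, Ppp6r1, Ppp1cc, Ppp1r11, Ppp4r2, Pptc7, Ppp3ca and Ppp1r12a. Lower were 2 (5.71%, against 12.2%), Ppp3cc and Ppp1cb. Apart from Ppm1h the differences between the group means were small, at most 0.33 in size on the log2 scale. The gaps between the groups were smaller still, and for Pptc7 the nearest arrays were almost level (5.958 in Cre, 5.957 in EV).

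**Figure D3:**
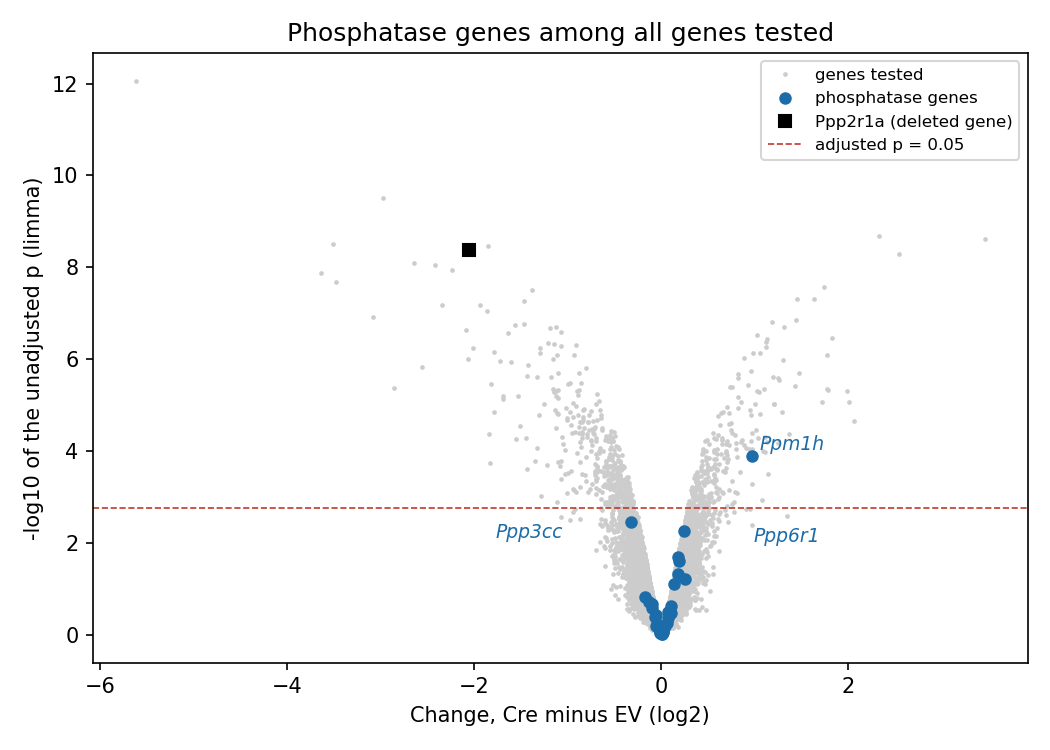
Change (Cre minus EV, log2) against -log10 of the unadjusted limma p for the 19733 genes tested (grey), the 35 phosphatase genes (blue) and Ppp2r1a (black square), with a dashed line where the adjusted p is 0.05. Ppm1h is the 1 blue point above the line, and Ppp3cc and Ppp6r1 lie just below it.

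How large a rise in array signal these arrays leave possible can be read from the intervals. For the 34 phosphatase genes other than Ppm1h, the 95% interval of the change lay within 1.5-fold either way for all 34 and within 1.25-fold for 24. Its upper end was below 1.25-fold for 28. Each interval holds for its own gene and is not adjusted for the number of genes. It rests on the spread between arrays. If that spread is only technical, the interval does not cover differences between cultures or mice. The share of background in the signal was not measured, so a bound on signal may not hold for RNA at low levels. Ppm1l, with group means of 4.66 in Cre and 4.68 in EV, is among the 28 (upper end 1.23-fold). Of the 35 intervals, 5 lay wholly above 0 (Ppm1h, Ppp6r1, Ppp1cc, Ppp1r11 and Ppp4r2), 1 wholly below it (Ppp3cc) and 29 included it. The intervals that excluded 0 belong to the same 6 genes that had an unadjusted limma p below 0.05, so this is not a further result. They are 17.1% of the phosphatase genes, against 16.1% of all genes tested.

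**Figure D4:**
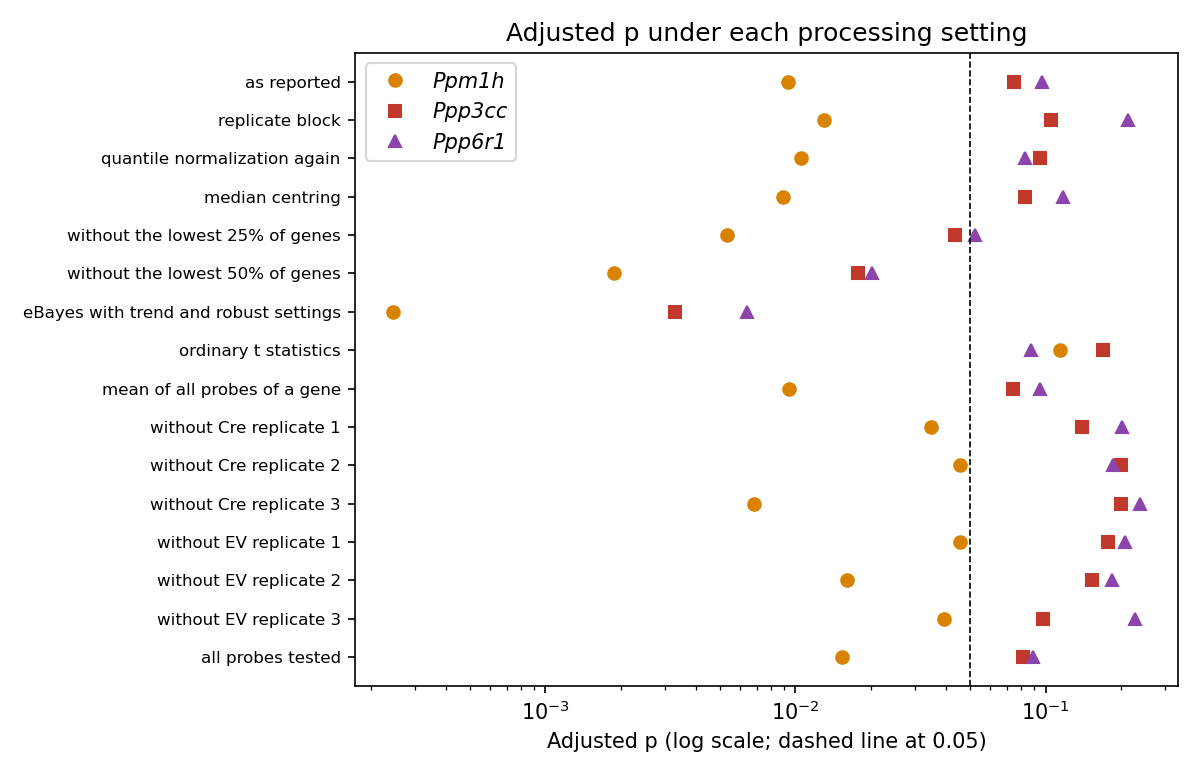
Adjusted limma p (log axis) of Ppm1h, Ppp3cc and Ppp6r1 as reported and under 15 other settings, with a dashed line at 0.05. Ppm1h is left of the line in 14 of the 15, Ppp3cc in 3 and Ppp6r1 in 2.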

How the data were processed

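Per the labels' protocols, total RNA was converted to biotin-labelled cRNA and measured on Affymetrix arrays with 1 colour. The values are log2 levels deposited by the authors, made with RMA per the submitters' processing notes. No source used here gives a version of RMA. RMA includes quantile normalization, so each change is relative to the other genes. Array medians lay between 5.217 and 5.27. No detection calls were used, and the number of arrays limits the precision. Across genes, r was 0.9955 to 0.9963 for arrays of one group and 0.9913 to 0.9923 for pairs that crossed groups.

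Of 25006 probe sets, 21467 had 1 gene symbol in the platform annotation, 1521 several and 2018 none, and 21386 were matched by gene identifier to current RefSeq symbols (GRCm38.p6). Those with 1 symbol gave 19733 genes. Cre and EV were compared with limma 3.58.1 in R 4.3.3 (lmFit, eBayes, no block), with Benjamini-Hochberg adjustment over all genes and calls at an adjusted p below 0.05. Intervals are 95% intervals of the moderated fit. Fits were tested on simulated data in which 200 of 19733 genes changed, fewer than the 689 called here. Of simulated log2 changes of 0.3, 0.5 and 1.0, the fit recovered 0.0%, 34.5% and 93.0%. The 95% intervals held the true change for 91.5%, 95.0% and 93.0% of them. A gene that did not pass may therefore still differ by 0.3 or 0.5, and less often by 1.0. Tables and plots were made with Python 3.11.15, pandas 2.3.3 and matplotlib 3.10.9.

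The phosphatase genes and lists were chosen with earlier results of these data known. Named in the text are Ppp2r1a, all phosphatase genes that passed, those with the smallest p up to 10, and all catalytic subunits. From each other list the text names up to 4 that passed, or otherwise the 2 with the smallest p. Beyond that rule it names the other PP2A core subunits, Ebf1, Cd79a, Pax5, Ankrd28 (whose p was level with that of Ankrd52), Ppm1j, Rcan1 and Col1a1. It also names the genes of the closing section. All of these were named with their values known. The other phosphatase genes are given by their change. RefSeq promoters were found for 28 of the 35 genes.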

Additional observations from a re-analysis of the deposited data

How the results depend on the processing

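Over 15 alternatives, Ppm1h passed in 14, with changes of 0.88 to 1.11 and adjusted p-values of 0.000245 to 0.114. With ordinary t statistics its change of 0.97 did not pass (adjusted p = 0.114), and 0 phosphatase genes rose. There were 2 rises without the dimmest 50% of genes (Ppm1h and Ppp6r1) and 4 with a variance trend and robust settings (also Ppp1cc and Ppp1r11). Ppp3cc was the 1 fall without the dimmest 25%, without the dimmest 50%, and with trend and robust settings. Of the 35 genes, 30 passed in no fit. For 16 of them, none with a change above 0.05 in size, the sign differed in at least 1 alternative without a call. The count of all genes called was 689 as reported, 1295 without the dimmest 50%, 1558 with trend and robust settings, 148 with ordinary t statistics, and 362 (without EV replicate 2) to 424 (without EV replicate 3) with 1 array left out.

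With the repeat number as a block, 425 genes were called, and Ppm1h passed (adjusted p = 0.013). The values showed no pairing by number: the deviations of same-numbered arrays correlated between -0.012 and 0.030, and 2 of 6 arrays correlated best with their own number. With so few arrays this check cannot exclude a pairing. Atf5 lost its call under the block (0.102), on quantile normalization again (0.0522) and with ordinary t statistics (0.073), and Dntt with ordinary t statistics (0.137). Ppm1h lay near the median gene level and Ppm1l below it, and signal over background was not measured for either.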

Other observations

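Genes around PPM1H were listed after its rise was seen, so they are given as values. Of 10 measured (Cdkn1b, Lrrk1, Lrrk2, 5 RAB genes and the effectors Rilpl1 and Rilpl2), 0 passed, with changes between -0.23 and 0.15. Cdkn1b, which encodes the PPM1H substrate p27, read 8.75, 8.80 and 8.53 in Cre and 8.90, 8.91 and 8.96 in EV, a difference of -0.23 (SE 0.09; adjusted p = 0.236 in limma). Lrrk2, the kinase that phosphorylates RAB GTPases, read 6.04, 5.85 and 5.99 against 6.20, 6.09 and 6.12 (-0.17, SE 0.07; adjusted p = 0.312). Both were lower on all 3 Cre arrays than on any EV array, while Rab8b and Rab35 (0.04, SE 0.06) were higher on all 3. Over all genes tested, the groups did not overlap for 22.5%. Rab8a and Rab10, RAB substrates of PPM1H, differed by -0.05 and 0.04, and Rab8b by 0.15 (SE 0.07; adjusted p = 0.334).

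Of the 4 eIF2 kinases and stress genes with the smallest p, Atf5, Trib3 and Eif2ak3 were lower in Cre and Chac1 was higher. Trib3, a pseudokinase, read 6.17, 6.18 and 6.36 in Cre and 7.10, 6.83 and 6.52 in EV (-0.58, SE 0.14; adjusted p = 0.0819 in limma). Eif2ak3, which encodes the eIF2 kinase PERK, read 6.43, 6.20 and 5.93 against 6.57, 6.59 and 6.73 (-0.45, SE 0.12; adjusted p = 0.118). Chac1, which degrades glutathione, read 8.49, 8.70 and 8.65 against 8.26, 8.32 and 7.71 (0.52, SE 0.16; adjusted p = 0.15). The groups did not overlap for any of the 4, which were picked by their small p. On the whole list of 14 tested genes the groups did not overlap for 35.7%, against 22.5% of all genes tested. Trib3, Eif2ak3 and Chac1 did not pass, and these 3 were named after their values were seen.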
